A study of Mus musculus with 14 samples.

Results

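MIN6 cells are an established mouse insulinoma line with many traits of pancreatic beta cells. The comparison described here set all arrays of MIN6 lines made to overexpress Sirt1 against all arrays of MIN6 lines made to lose it, probe by probe. Every array of the series took part: 7 of 14 came from overexpressing lines and 7 from knockdown lines. Sir2OE1 (3 arrays) and Sir2OE2 (4 arrays) carried mouse Sirt1 and a neomycin resistance gene from the retrovirus pBabe-Sirt1 and were kept under G418 at 280 micrograms per ml. Each was hybridised against pooled RNA of Neo1 and Neo2, MIN6 lines infected with the pBabe-neo virus. Sir2KD1 (3 arrays) and Sir2KD2 (4 arrays) were co-transfected with vectors for 2 different small interfering RNAs against Sirt1 and a neomycin-resistance plasmid and were kept under G418 at 400 micrograms per ml. Each was hybridised against mU6pro, a MIN6 line made with the same vector without an insert against Sirt1. All lines started from passage 24 and grew for 4 days in 5 mM glucose before RNA was taken. The labels call the lines of a kind independent, and do not say whether a line is 1 clone or a pool, or whether the slides of a line are separate cultures. The p-values below are therefore set by how far arrays scatter, and part or all of that scatter may be technical.

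Sirt1 is a protein deacetylase that uses NAD as a co-substrate and so links the energy state of a cell to gene regulation. Its known substrates include histones and transcription factors such as p53 and the FoxO proteins. In beta cells it is known for its effect on glucose-stimulated insulin secretion and on uncoupling proteins of the inner mitochondrial membrane. Setting overexpression against knockdown asks which transcripts separate the extremes of Sirt1 dosage in the same parental cell.

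The deposited value of a probe was the log2 ratio of the 2 channels of an array. The sign of each array was turned by the channel that held the modified line, so that the line would be on top if channel 2 was the numerator. The comparison needs a further assumption, that overexpression and knockdown arrays hold the same channel on top. With the other channel on top in the knockdown arrays alone, 1160 probes in place of 617 (2.66% of those tested) were called, and 118 of them were called on the same side as here. Neither labels nor values settled the overall sign, so values are given as the plus side or the minus side of the turned ratio, and neither side is called more or less RNA. Reversing the overall sign would exchange the sides of all 4 lines together and leave the size and test of each difference as they are. The deposited values were centred per probe within each kind, so that 6 of 7 arrays of a kind summed to 0. A dye term for each kind was fitted for that reason, and the array values printed below are turned log2 ratios less that term. The files gave no intensities, so how far a probe stood above background is not known. Precision is limited by having 7 arrays a kind.

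The paternally expressed gene Dlk1, which encodes a Notch-like membrane protein of immature endocrine cells, shows what the turn does. As deposited, Sir2OE1 read -1.52 and -1.30 with the line in channel 2 and 1.55 with it in channel 1. Sir2OE2 read 1.29 and 1.18 in channel 2 and -1.13 and -1.37 in channel 1. In the knockdown arrays, Sir2KD1 read -3.73 in channel 2 and 4.34 and 4.17 in channel 1, and Sir2KD2 read -0.92 and -1.06 in channel 2 and 0.95 and 0.59 in channel 1. The sign of Dlk1 thus changed with the channel in every line. This was not general. Among probes whose lines differed clearly within a kind (a sum of squares above 4, less than 0.1 of it left by either reading, limits set after the values were seen), the deposited values changed sign with the channel for 56 of 62 overexpression probes and for 50 of 96 knockdown probes. Counting only those with a gene symbol, it was 43 of 43 overexpression probes and 38 of 59 knockdown probes. Over all 23227 complete probes, the difference between lines measured in channel 2 had r = -0.0135 with that measured in channel 1 for overexpression and r = -0.0058 for knockdown. These correlations run across probes and describe them only. The turn is therefore better borne out for the overexpression arrays than for the knockdown arrays, and all results below rest on it.

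**Figure D1:**
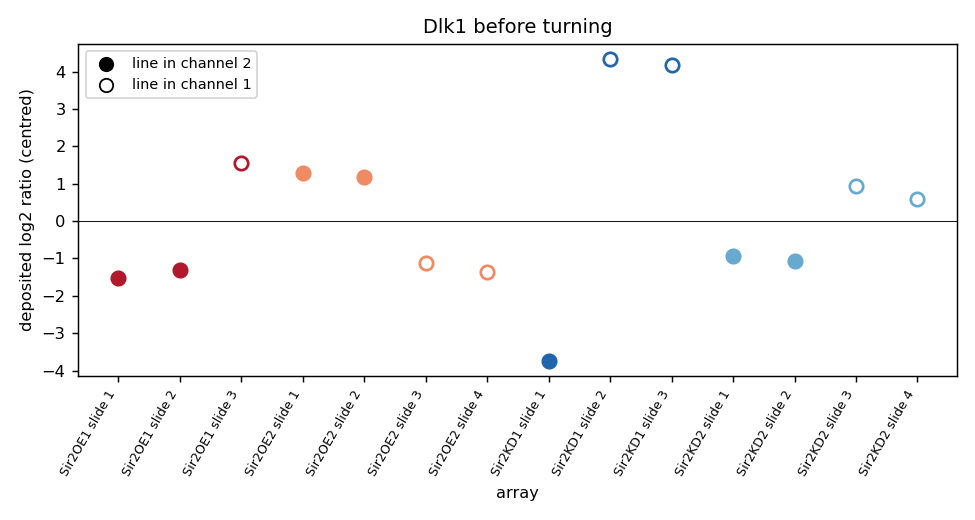
Deposited, centred log2 ratios of Dlk1 (y axis) on the 14 arrays (x axis), before any sign was turned; colours mark the 4 lines, filled points arrays with the line in channel 2 and open points arrays with the line in channel 1. In each line the filled and the open points lie on opposite sides of 0, from -3.73 to 4.34.

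Alpha-1-antitrypsin genes stood furthest apart between the kinds on the plus side. Other named genes of that side included the transcription factors Zkscan1 and Ebf1 and the pocket protein Rbl2. The epithelial splicing factor Esrp1, the carbonic anhydrase Car15 and the protease inhibitor Spint1 were among those furthest apart on the minus side. Of 23230 probes tested, limma called 617 for overexpression minus knockdown at a Benjamini-Hochberg adjusted p under 0.05, which is 2.66% of those tested. Of these, 357 were on the plus side (1.54% of the probes tested) and 260 on the minus side (1.12%). The called probes with a single gene symbol numbered 542 and stood for 532 genes. Differences of called probes ran from 0.43 to 5.72 in size with a median of 0.92 on the log2 scale, against a median of 0.20 over all probes. A size above 1 was reached by 266 of them and a size above 2 by 49.

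The sign was the same in all 4 differences between an overexpressing and a knockdown line for 566 of the 617 called probes (91.7%) and for 39.4% of all probes. The called probes were chosen by the mean of these 4 differences, so their share is a description. The 7 overexpression arrays did not overlap the 7 knockdown arrays for 357 of the called probes (57.9%) and for 503 probes of all tested (2.17%). For 487 of the called probes (78.9%) the kinds differed by more than either pair of lines within a kind, which held for 26.8% of all probes. With the 2 lines of each kind as the replicates in place of arrays, limma gave 0 calls. At an unadjusted p under 0.05 it gave 1822 probes, where the array-level fit gave 3350. Leaving out the line Sir2OE2 left 186 calls in place of 617. The overexpression lines share the Neo pool and the knockdown lines share mU6pro. A peculiarity of either control RNA would enter every array of that kind, and cannot be told apart from an effect of the lines.

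**Figure D2:**
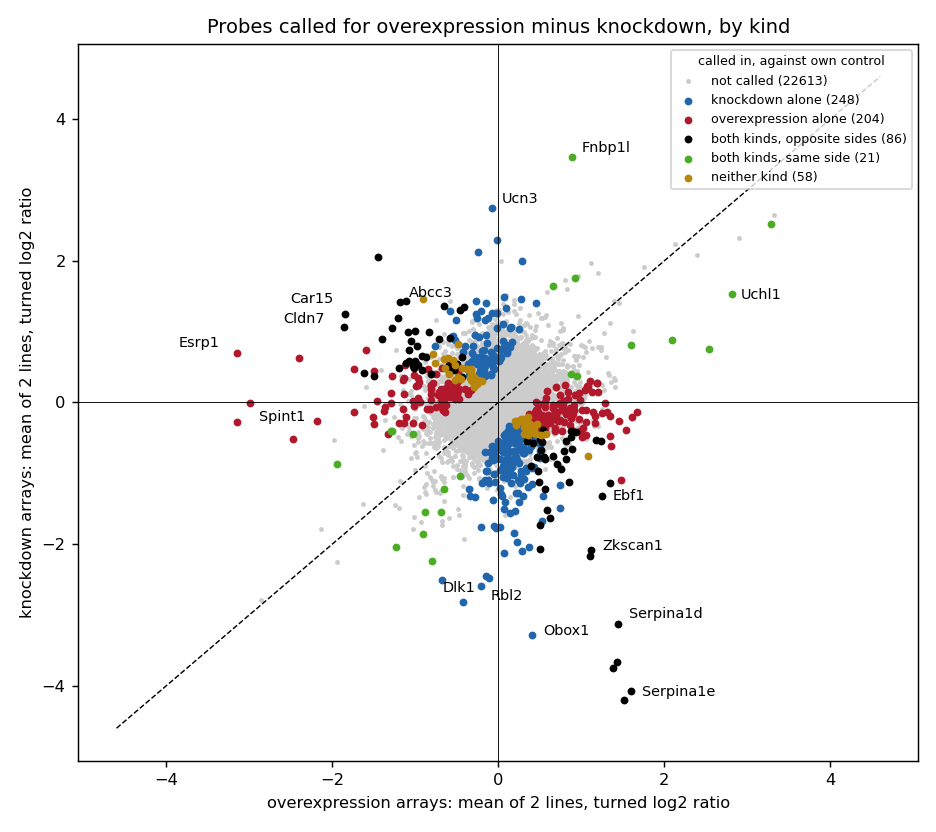
Mean turned log2 ratio of the 2 knockdown lines (y axis) against that of the 2 overexpression lines (x axis), 1 point per probe; grey points were not called for the difference, and colours sort the 617 called probes by which kind was called against its own control (black, both kinds on opposite sides, 86 probes). The dashed line marks equal values in both kinds: the Serpina1 probes lie farthest below it, at overexpression means near 1.5 and knockdown means between -4.21 and -3.13.

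The 5 alpha-1-antitrypsin paralogs measured, Serpina1a to Serpina1e, encode secreted proteins of a serine protease inhibitor family, made mainly by hepatocytes. The mouse genes are neighbours in a cluster of recent duplicates. Their upstream sequences are shown because the genes moved together, and because their likeness bears on what a probe can tell apart. Each of 3 windows below is the 250 bases before the annotated gene start in RefSeq on GRCm38.p6, with capitals marking a 12-base stretch that begins with GTTAAT, letters found in binding sites of HNF1 factors of liver and islets.

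Serpina1e, chr12:103956898-103957147, minus strand: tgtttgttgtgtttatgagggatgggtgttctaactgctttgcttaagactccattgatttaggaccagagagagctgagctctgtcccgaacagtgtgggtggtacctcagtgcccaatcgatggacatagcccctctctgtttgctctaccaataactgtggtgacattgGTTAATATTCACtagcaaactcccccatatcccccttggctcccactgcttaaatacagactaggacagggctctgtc

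Serpina1d, chr12:103773634-103773883, minus strand: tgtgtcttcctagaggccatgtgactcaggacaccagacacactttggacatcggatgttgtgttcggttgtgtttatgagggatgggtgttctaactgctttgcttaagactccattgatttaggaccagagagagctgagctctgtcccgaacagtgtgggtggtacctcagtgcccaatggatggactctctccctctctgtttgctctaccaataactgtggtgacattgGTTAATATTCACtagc

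Serpina1c, chr12:103904951-103905200, minus strand: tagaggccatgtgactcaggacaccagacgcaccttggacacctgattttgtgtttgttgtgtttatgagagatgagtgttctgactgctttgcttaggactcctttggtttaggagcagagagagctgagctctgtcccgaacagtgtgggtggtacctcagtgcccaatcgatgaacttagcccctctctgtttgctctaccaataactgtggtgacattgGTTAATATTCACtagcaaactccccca

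The stretch GTTAATATTCAC was found once in the window of each of the 5 paralogs and, with both strands searched, in 5 of 32851 such RefSeq windows (0.0152%). It was picked from these very genes, so its count elsewhere is a description. The letters GTTAAT alone were in 2113 windows (6.43%). The stretch ended 4 bases before the annotated start in Serpina1d, 9 in Serpina1a, 14 in Serpina1b, 15 in Serpina1c and 66 in Serpina1e. It lay within 55 bases that were identical in all 5 windows. Local alignments of the 10 pairs of windows covered 190 to 250 columns with 91.6% to 97.0% identity. Transcripts of these paralogs are likewise near-identical, and a probe of 1 paralog may read another, so the 5 genes are not 5 separate measurements.

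All 5 Serpina1 probes separated the kinds completely, on the plus side. Serpina1e read 1.10, 1.72 and 2.36 (lowest, median and highest of 7 overexpression arrays) and -4.47, -3.85 and -3.62 in the 7 knockdown arrays. All overexpression arrays were above 0 and all knockdown arrays below it, with a gap of 4.72 between the groups. Overexpression minus knockdown was 5.67 ± 0.17 (SE, limma, 7 arrays against 7), or 50.9-fold between the 2 ratios to control, with adjusted p = 1.28e-07. Serpina1b read 0.89, 1.79 and 2.32 in overexpression arrays and -5.93, -3.62 and -3.04 in knockdown arrays. Here too the groups stood on opposite sides of 0, and the 3 Sir2KD1 arrays were the lowest. The difference was 5.72 ± 0.25, or 52.6-fold, with limma adjusted p = 8.81e-07. For Serpina1c it was 5.13 ± 0.18, for Serpina1a 5.09 ± 0.21 and for Serpina1d 4.57 ± 0.21, with gaps of 3.75, 3.57 and 3.17 between the groups. Knockdown carried the larger share of each: kind means against the own control ran from -4.21 to -3.13 in knockdown and, in overexpression, from 1.38 for Serpina1c to 1.51 for Serpina1b with Serpina1e above them, and each kind was called for each of the 5. With the other channel on top in the knockdown arrays, the 5 differences changed side, to between -2.70 for Serpina1b and -1.68 for Serpina1d. The other 17 plasma proteins on the same list did not pass the test. Albumin (Alb) was at 0.37, antithrombin (Serpinc1) at -0.35, corticosteroid-binding globulin (Serpina6) at -0.19 and the acute-phase inhibitor Serpina3n at -0.48. Limma called 0 of the 17, and 3 had an unadjusted p under 0.05. Over all 23230 probes limma called 2.66%, and 3350 had an unadjusted p under 0.05. A count of 0 among 17 genes is near that share.

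Zkscan1 and Ebf1 were called in both kinds on opposite sides, plus in overexpression. Zkscan1, a zinc-finger factor, read 0.27, 1.22 and 1.62 in overexpression arrays and -2.83, -1.98 and -1.14 in knockdown arrays. The groups did not overlap, and the difference was 3.20 ± 0.24 with limma adjusted p = 4.84e-05. The other Zkscan1 probe was not called, at 0.34, so the gene's probes disagree. Ebf1, a factor known from B-cell and adipocyte differentiation, read 0.68, 1.35 and 1.97 in overexpression arrays and -1.98, -1.39 and -0.25 in knockdown arrays. Its difference was 2.56 ± 0.34 (adjusted p = 0.00214), and the kind means were of like size, at 1.24 and -1.32 against their controls.

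Rbl2 encodes p130, a pocket protein that holds cells out of the cycle together with E2F factors and is a known target of FoxO. It read -0.67, -0.22 and 0.07 in overexpression arrays and -3.01, -2.62 and -2.25 in knockdown arrays. All knockdown arrays lay far below all overexpression arrays, which stayed near 0. The difference of 2.38 ± 0.17 (5.22-fold, limma adjusted p = 3.76e-05) was called against the control in knockdown alone, with knockdown lines at -2.57 and -2.60. C2cd4b, a nuclear protein gene that lies at a locus linked to diabetes, read 0.18, 0.46 and 1.01 in overexpression arrays and -1.92, -1.66 and -1.43 in knockdown arrays. The groups stood apart by 1.61, and the difference was 2.25 ± 0.13 (adjusted p = 6.67e-06).

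The other leading plus-side genes were more uneven. The oocyte homeobox gene Obox1 differed by 3.69 ± 0.34 and was called in knockdown alone, while the means of Sir2OE1 and Sir2OE2 lay apart, at 1.66 and -0.84. Reg2, a secreted islet regeneration protein, read 0.06, 0.57 and 0.99 in overexpression arrays and -2.73, -1.83 and -0.38 in knockdown arrays. Its difference was 2.20 ± 0.32 with adjusted p = 0.00479, and a gap of 0.43 separated the groups. The unannotated transcript 2210416O15Rik differed by 2.49 ± 0.35 with a gap of 0.42. Without the line Sir2OE2 the calls of Ebf1, Reg2 and 2210416O15Rik were lost, at 2.67, 2.22 and 2.68 with adjusted p of 0.0578, 0.147 and 0.0921.

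On the minus side, Esrp1 and Spint1 were called against the control in overexpression alone. Esrp1, which keeps epithelial splice forms in place, read -3.69, -3.26 and -2.48 in overexpression arrays and -1.24, 1.14 and 2.10 in knockdown arrays. Overexpression arrays were all low and close together, whereas the knockdown arrays spread over both sides of 0. The difference was -3.86 ± 0.41 (14.5-fold, limma adjusted p = 0.000478). Spint1, an inhibitor of the hepatocyte growth factor activator and of matriptase on epithelial surfaces, read -3.62, -2.76 and -2.18 against -0.94, 0.18 and 0.63. The groups did not overlap, and the knockdown mean was -0.01. Its difference was -2.98 ± 0.24 with adjusted p = 8.15e-05.

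Car15 and Abcc3 lay on opposite sides in the kinds, with little spread. Car15, a membrane-anchored carbonic anhydrase, read -2.39, -1.89 and -1.34 in overexpression arrays and 1.05, 1.25 and 1.44 in knockdown arrays. Both groups kept clear of 0 and stood 2.39 apart, with a difference of -3.10 ± 0.13 (8.59-fold, limma adjusted p = 8.81e-07). Abcc3 exports bile salts and glucuronides from cells, and read -1.66, -1.06 and -0.87 in overexpression arrays against 0.80, 1.01 and 1.75 in knockdown arrays. Its difference was -2.40 ± 0.19 with adjusted p = 7.02e-05. Rassf6, a Ras-association protein tied to Hippo signalling, and Pdzk1ip1, a small membrane protein of epithelia, were also called in both kinds on opposite sides. They differed by -2.08 ± 0.26 and -2.60 ± 0.29. Of these, Rassf6 was not called without the line Sir2OE2, at -1.90 with adjusted p = 0.0594.

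Ucn3 and Fnbp1l, also on the minus side, were farthest from their control in the knockdown arrays. Both changed side, to 2.67 and 4.35, with the other channel on top in those arrays, as did Rbl2 (-2.79) and C2cd4b (-1.01) of the plus side. Ucn3 encodes urocortin 3, a peptide that mature beta cells release with insulin. Its called probe read -0.94, 0.44 and 0.90 in overexpression arrays and 2.41, 2.79 and 2.94 in knockdown arrays. The knockdown arrays were tightly grouped above all others, and the difference was -2.81 ± 0.15 (limma adjusted p = 4.38e-06). A second Ucn3 probe lay on the other side at 0.75 and was not called for the difference. Against the control in knockdown both probes were called, on opposite sides, at 2.74 and -0.68. The gene's direction thus depends on the probe. Fnbp1l, which couples membrane curvature to actin, was on the plus side in both kinds, at 0.89 in overexpression and 3.46 in knockdown, and differed by -2.57 ± 0.29.

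By their leading probe, the remaining minus-side genes were called in overexpression alone. Ptgds, the prostaglandin D2 synthase, differed by -2.34 ± 0.29 and the Rap exchange factor Rapgef2 by -1.96 ± 0.25; neither was called without the line Sir2OE2, at -2.03 and -1.77. Cyct, the testis form of cytochrome c, differed by -2.21 ± 0.20, and its second probe was called as well, at -2.03. That second probe was called in both kinds on opposite sides, with a knockdown mean of 0.41. A probe named for the immunoglobulin segment Ighv6-6 differed by -3.02 ± 0.30, but 33 other probes with that name were not called. Of the 24 genes named on both sides, 24 kept side and call when any 1 of the 14 arrays was left out, and 18 also when any 1 of the 4 lines was. The rule for naming asked for the same sign in all 4 line differences and no overlap of arrays. Keeping the side was thus built in and keeping the call favoured, so these counts are a description.

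**Figure D3:**
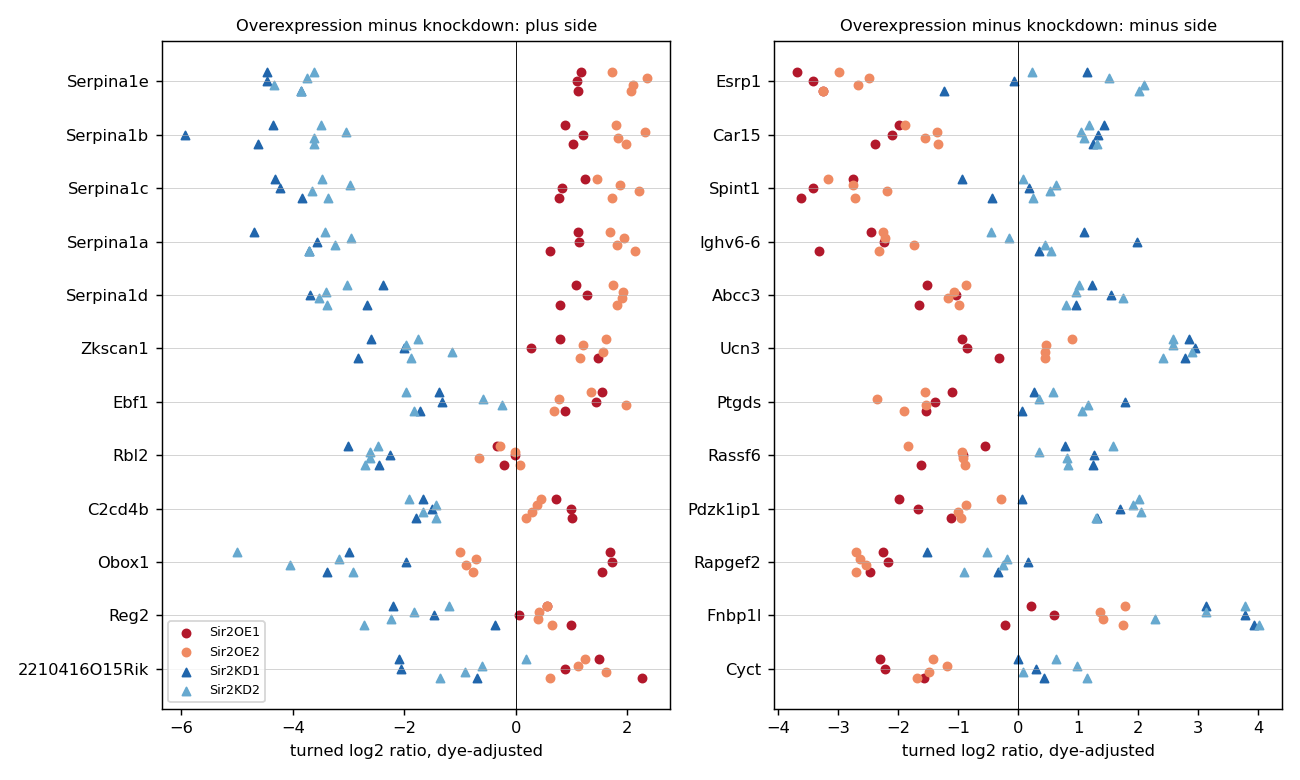
Turned log2 ratio less the dye term (x axis) on each of the 14 arrays for the 12 leading genes of each side (y axis), circles for the overexpression lines and triangles for the knockdown lines. The circles and triangles of a gene do not overlap, as the rule for naming required; the gap is 4.72 for Serpina1e and 0.34 for Pdzk1ip1.

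The called probes were next sorted by the test of each kind against its own control. Overexpression was called for 799 probes (3.44%) and knockdown for 1054 (4.54%). Among the 617 probes called for the difference, 248 were called in knockdown alone, 204 in overexpression alone and 58 in neither. Both kinds were called on opposite sides for 86 probes (0.37% of all tested), 44 with overexpression plus (0.189%) and 42 with overexpression minus (0.181%). Both kinds were called on the same side for 165 probes (0.71%), of which 21 differed between the kinds. Same-side probes thus outnumbered opposed ones. With the other channel on top in the knockdown arrays, the 86 and the 165 change places by construction, since each kind's own test stays as it is. The 86 became 56 without Sir2OE2 slide 1, 53 without Sir2OE2 slide 3, 57 without Sir2KD1 slide 1 and 51 without Sir2KD2 slide 1. It was 51 without line Sir2OE1, 11 without Sir2OE2, 49 without Sir2KD1 and 40 without Sir2KD2.

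By the rule for opposed genes, the leading ones were the Serpina1 paralogs, Car15, Ebf1, Abcc3, Pdzk1ip1, 2210416O15Rik, Zkscan1 and Cldn7. Claudin 7 (Cldn7), a tight-junction strand protein, read -2.07, -1.95 and -1.32 in overexpression arrays and -1.11, 2.42 and 3.74 in knockdown arrays. The knockdown lines did not share a side: Sir2KD1 was at -0.78 and Sir2KD2 at 2.92. The difference between the kinds was -2.92 ± 0.25 (adjusted p = 0.000113), and without the line Sir2KD2 it was -0.99 with adjusted p = 0.0947. Ucp1, the uncoupling protein of thermogenic fat, read -1.69, -0.75 and -0.31 in overexpression arrays and 0.30, 0.52 and 0.79 in knockdown arrays. Its groups lay on either side of 0, with a difference of -1.50 ± 0.14 (2.82-fold, limma adjusted p = 0.000233). The calpain Capn9, a protease of the digestive tract, was called in both kinds as well, at -1.01 and 1.01, with a difference of -2.02 ± 0.14 (adjusted p = 3.80e-05).

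Epithelial genes gave the most calls of any list on the minus side. Of 31 junction, keratin and epithelial splicing genes measured, 7 were called minus and 0 plus (22.6% of the list, against 2.66% of all probes). The list median was -0.35 against -0.01 over all probes. This and the lists below were chosen with earlier results of these data known, so their shares are a description. The epithelial list also holds Esrp1 and Spint1, leading genes of the minus side. The 7 were Esrp1, Spint1, Cldn7, the claudin Cldn3, the adhesion molecule Epcam and the keratins Krt7 and Krt19. Cldn3 read -0.81, -0.52 and -0.37 in overexpression arrays and 0.24, 0.34 and 0.67 in knockdown arrays, on opposite sides of 0, and differed by -0.99 ± 0.10 (adjusted p = 0.000454). Krt7 differed by -1.05 ± 0.13 and was called against its control in knockdown alone, and Krt19 by -0.50 ± 0.10 and in overexpression alone. The arrays of Epcam overlapped widely: its line means were -2.74 and -1.15 in overexpression and -2.18 and 0.45 in knockdown, and the difference of -1.08 became -0.28 without Sir2OE1 and 0.34 without Sir2KD2, neither called. The call of Krt7 was lost without the line Sir2KD2, at -0.87. Krt19 was kept in 3 of 14 single-array omissions and in 0 of 4 line omissions, at values from -0.67 to -0.33. E-cadherin (Cdh1, 0.35), occludin (Ocln, 0.74), the keratin Krt8 (-0.07) and the second splicing regulator Esrp2 (-0.63) did not pass the test.

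Of 14 beta-cell identity genes measured, 3 were called plus and 1 minus (28.6% of the list, against 2.66% of all probes), all 4 of them transcription factors, with a list median of 0.24. With the last probe of each gene in place of the first, 2 were called minus. Ucn3 is also on this list and was counted by its first probe, at 0.75 and not called. Its other probe, described above, was called minus at -2.81, farther from 0 than any of the 4 calls counted here. This list too was chosen with earlier results known, so its share is a description. Isl1, a LIM-homeodomain factor of islet cells, read -0.40, 0.02 and 0.95 in overexpression arrays and -0.79, -0.63 and -0.54 in knockdown arrays, so the groups were separate by a narrow 0.15. It differed by 0.90 ± 0.12 (adjusted p = 0.00275), and by 0.42 without the line Sir2OE1, which was not called. Pdx1, the master regulator of pancreas and insulin genes, read -0.39, -0.02 and 0.32 in overexpression arrays and -0.86, -0.63 and -0.44 in knockdown arrays. It differed by 0.64 ± 0.12 (1.55-fold, adjusted p = 0.016), with the overexpression arrays around 0 and the knockdown arrays below. The call of Pdx1 was lost without Sir2OE1 slide 3, without Sir2KD1 slide 1 and without each line, with values from 0.50 to 0.81. Nkx2-2, a homeodomain factor needed for beta cells, differed by 0.74 ± 0.13, and was not called without Sir2OE2 (0.79) or Sir2KD1 (0.38). Pax4, a transcription factor that promotes early beta-cell fate, was called minus at -0.66 ± 0.13. However, Sir2KD1 (-0.40) lay with the overexpression lines, and without Sir2KD2 the difference was -0.098. Its call was also lost without the lines Sir2OE1 (-0.60) and Sir2OE2 (-0.71) and without Sir2OE1 slide 3, Sir2KD1 slide 1 or Sir2KD2 slide 1 (-0.66 to -0.59). Ins2 (-0.03), Iapp (-0.37), Nkx6-1 (-0.05), Neurod1 (0.04) and the glucose transporter Slc2a2 (0.28) did not pass the test. Of the 14 probes counted, 3 read a single shared set of ratios, those of Ins2 and Iapp among them. Such a set was read, to within 1 percentage point on at least 5 arrays, by 329 overexpression and 173 knockdown probes. Of the 617 probes called for the difference, 0 were of this sort. Whether such probes follow their transcripts was not tested.

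Of the granule, glycolysis, mitochondrial and antioxidant lists, 3.85%, 8.70%, 9.52% and 4.55% of the measured members were called, against 2.66% of all probes. Probes with the shared set of ratios made up 6 of 26 granule, 1 of 23 glycolysis and 3 of 22 antioxidant members. Rab3a, a GTPase of secretory granules, was the single call among 26 granule and exocytosis genes, with arrays at 0.54, 0.61 and 0.86 in overexpression and -0.25, -0.13 and 0.26 in knockdown. It differed by 0.70 ± 0.12 (adjusted p = 0.0125), and was called in 13 of 14 single-array omissions (not without Sir2KD1 slide 1, at 0.60) and without 1 of the 4 lines. Among 23 glycolysis genes, the phosphofructokinase Pfkm (-0.71 ± 0.16) and the glycerol phosphate dehydrogenase Gpd1 (-0.57 ± 0.11) were called minus, and were kept in 1 and 7 of 14 single-array omissions, at -0.85 to -0.62 and -0.61 to -0.50. In line omissions they were kept in 1 and 2 of 4, at -0.97 to -0.43 and -0.67 to -0.45. Of 21 mitochondrial regulators, Ucp1 and the carnitine palmitoyltransferase Cpt2 (-0.64 ± 0.14) were called minus, and Cpt2 kept its call in 3 of 14 single-array omissions (-0.70 to -0.56) and in 1 of 4 line omissions (-0.84 to -0.41). Ppargc1a, a coactivator of mitochondrial genes, was at -0.57 and did not pass. The extracellular superoxide dismutase Sod3 was the single call among 22 antioxidant genes, at 0.76 ± 0.14. It was far on the plus side in both kinds, at 3.29 in overexpression and 2.53 in knockdown, and the difference was -0.061 without Sir2OE2. The call was also lost without the line Sir2KD2 (0.51) and without Sir2OE1 slide 3 (0.71) or Sir2KD1 slide 1 (0.77).

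Of 27 neuronal genes measured, 5 were called plus and 1 minus (22.2% of the list, against 2.66% of all probes), with a list median of -0.02. With the last probe of each gene in place of the first, 4 were called plus. The neuronal list was likewise chosen with earlier results known, and its share is a description. Uchl1, a neuronal ubiquitin hydrolase, read 2.32, 2.96 and 3.47 in overexpression arrays and 1.18, 1.67 and 1.91 in knockdown arrays. All 14 arrays were on the plus side, and the overexpression arrays were the higher group, by 1.28 ± 0.12 (adjusted p = 0.000271). The growth-cone protein Gap43 differed by 1.04 ± 0.14, the cell-adhesion protein Cntn1 by 0.86 ± 0.17, the RNA-binding protein Elavl4 by 0.57 ± 0.10 and the microtubule protein Mapt by 0.52 ± 0.11. Tyrosine hydroxylase (Th), the first enzyme of catecholamine synthesis, was called minus at -0.88 ± 0.18, and was at -0.12 without Sir2KD2. Of these 6 calls, that of Uchl1 was kept in every omission of an array or line. Those of Gap43 and Elavl4 were kept in all 14 single-array omissions, and those of Cntn1, Mapt and Th in 10, 3 and 6. In line omissions Gap43 lost its call without Sir2OE1 (0.56) and Sir2KD1 (0.60), and Elavl4 in all 4 (0.37 to 0.77). Cntn1 and Mapt also lost theirs in all 4 line omissions (0.71 to 0.94 and 0.47 to 0.59), and Th in 2 of 4 (-1.59 to -0.12 over the 4).

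The FoxO, p53, protein folding and cell cycle lists gave between 1 and 3 calls each. These were 13.6%, 10%, 3.57% and 4.76% of the measured members, against 2.66% of all probes. Among the 28 protein folding and stress members, 3 were probes with the shared set of ratios. Of 22 FoxO targets, Rbl2 was called plus and the receptor Igf1r (-0.82 ± 0.17) and the mitophagy receptor Bnip3 (-0.68 ± 0.12) minus. With the last probe of each gene, 1 FoxO target was called minus in place of 2. Igf1r was called in 6 of 14 single-array omissions and in 0 of 4 line omissions, at -1.26 to -0.31. Bnip3 was not called without Sir2OE1 (-0.28) or Sir2KD2 (-0.64). Of 20 p53 targets, Ei24 was called plus (0.59 ± 0.10) and the kinase Plk2 minus, at -0.81 in overexpression and 0.19 in knockdown. Plk2 was not called without Sir2OE2 or Sir2KD2, at -0.94 and -0.96, and Ei24 not without Sir2KD1 slide 1 (0.57) or the lines Sir2OE1, Sir2OE2 and Sir2KD2 (0.48 to 0.68). The asparagine synthetase Asns was the single call among 28 genes of protein folding and amino acid stress, at -0.60 ± 0.13, and was kept in 2 of 14 single-array omissions (-0.66 to -0.45) and in 0 of 4 line omissions (-0.68 to -0.58). The mitotic kinase Aurka (0.72 ± 0.14) was called plus with Rbl2 among 42 cell cycle genes, and was kept in 6 of 14 single-array omissions (0.64 to 0.82) and in 0 of 4 line omissions (0.57 to 0.89). The cyclins Ccnd1 (-0.74), Ccna2 (0.37) and Ccnb2 (0.35) did not pass. Among other families, Car7 joined Car15 on the minus side of 15 carbonic anhydrases at -1.14 ± 0.25, Capn1 joined Capn9 among 14 calpains at -0.60 in overexpression against 0.40 in knockdown, and Abcc3 was alone among 31 ABC transporters. Car7 and Capn1 were each kept in 2 of 14 single-array omissions, at -1.36 to -0.94 and -1.13 to -0.85. In line omissions each was kept in 0 of 4, at -1.53 to -0.77 and -1.21 to -0.79. With the last probe of each gene, 3 carbonic anhydrases were called minus in place of 2. Calls made up 13.3% of the carbonic anhydrases, 14.3% of the calpains and 3.23% of the ABC transporters, against 2.66% of all probes. Of 21 imprinted genes, Plagl1 (0.55 ± 0.11) and Dlk1 (2.36 ± 0.14) were called plus (9.52% of the list). The lines of Dlk1 were far apart, at -1.46 and 1.24 in overexpression and -4.07 and -0.88 in knockdown, and without Sir2OE2 the difference was 1.00 with adjusted p = 0.108. Plagl1 was kept in 6 of 14 single-array omissions (0.49 to 0.61) and in 1 of 4 line omissions (0.21 to 0.86). With limma, 0 of 29 extracellular matrix genes and 0 of 21 interferon response genes were called, and 1 and 2 had an unadjusted p under 0.05.

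**Figure D4:**
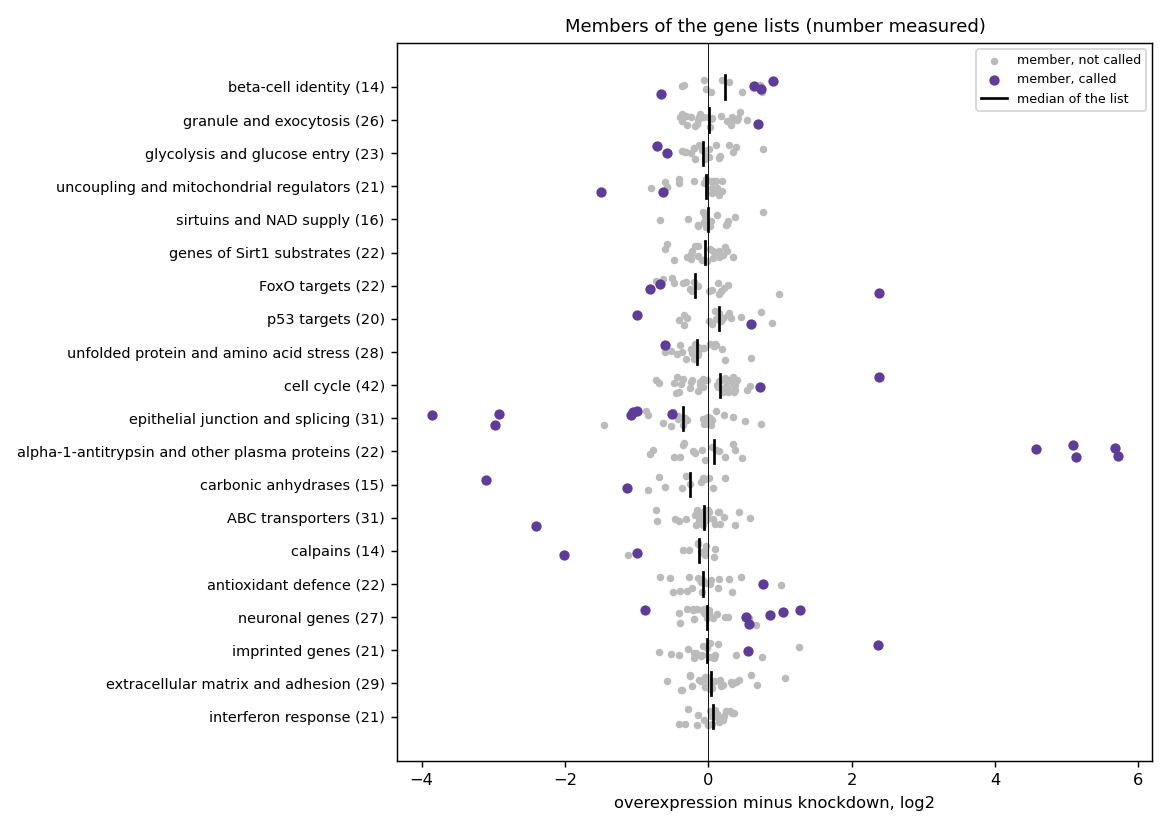
Overexpression minus knockdown on the log2 scale (x axis) for each measured member of the 20 gene lists (y axis, number measured in brackets); purple points were called at an adjusted p under 0.05, grey points were not, and the black bar is the list median. The 5 Serpina1 genes lie between 4.57 and 5.72, apart from the other plasma proteins, and 7 called epithelial genes lie below 0.

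The Sirt1 probe itself did not separate the kinds. It read -0.47, -0.22 and 0.19 in overexpression arrays and -0.19, 0.09 and 0.20 in knockdown arrays. The groups overlapped, and the difference was -0.14 ± 0.11 with limma adjusted p = 0.619. The labels do not place the probe on the transcript, and whether it reads the transgene or spans a target of the interfering RNAs is unknown, so it does not check the labels. Of 16 sirtuin and NAD supply genes, limma called 0 (0 at an unadjusted p under 0.05), and differences ran from -0.67 for Sirt4 to 0.76 for the NAD glycohydrolase Bst1. Nampt, which makes the NAD precursor, was at 0.13, Sirt3 at 0.02 and Parp1 at -0.03. Of 22 genes whose proteins are Sirt1 substrates, limma called 0 (4 at an unadjusted p under 0.05), with a median of -0.05. Over all 23230 probes limma called 2.66%, and 3350 had an unadjusted p under 0.05. Counts of 0 calls in lists of this size are near that share and say little about the lists.

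Markers of other pancreatic cells were checked in the same fit, in which 2.66% of all probes were called. Of 6 beta-cell markers measured, Pdx1 was called, and the median difference was -0.04. However, 3 of these 6 probes read the shared set of ratios described above, as did 1 of 7 for other islet cells. Ratios against a control RNA do not show whether a marker is present, only whether it differs, and fewer cells of a type cannot be told apart from less of its RNA per cell. Of 7 markers of other islet cells, limma called 0 (1 at an unadjusted p under 0.05), from -0.29 for Sst to 0.35 for Ghrl, with Gcg at 0.02. The acinar carboxypeptidase Cpb1 was called at 0.93 ± 0.17 and was the single call among 8 acinar markers. It was not called without the lines Sir2OE2 (0.62) or Sir2KD1 (0.13) or without Sir2KD1 slide 1 (0.82). The keratins Krt7 and Krt19 were the called members of 5 duct markers, while Sox9 (0.44), Cftr (0.08) and Muc1 (0.00) were not. Of 10 mesenchymal and endothelial and 6 immune markers, limma called 0, and 3 and 1 had an unadjusted p under 0.05. The part of such cells in the results was not tested.

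How far the 4 lines carry the calls differed from gene to gene. The difference between Sir2OE1 and Sir2OE2 was called for 75 probes (0.323%) and that between Sir2KD1 and Sir2KD2 for 160 (0.689%). Each pairing across kinds gave more, 367 for Sir2OE1 minus Sir2KD1, 291 for Sir2OE1 minus Sir2KD2, 362 for Sir2OE2 minus Sir2KD1 and 401 for Sir2OE2 minus Sir2KD2. These 4 pairings share lines and control RNAs and do not repeat each other independently. Of 57 called genes followed through every omission, 22 kept side and call whichever array or line was left out, in 18 omissions each. Besides 18 of the leading 24 genes, whose rule for naming favoured this, these were Capn9, Cldn3, Ucp1 and Uchl1.

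**Figure D5:**
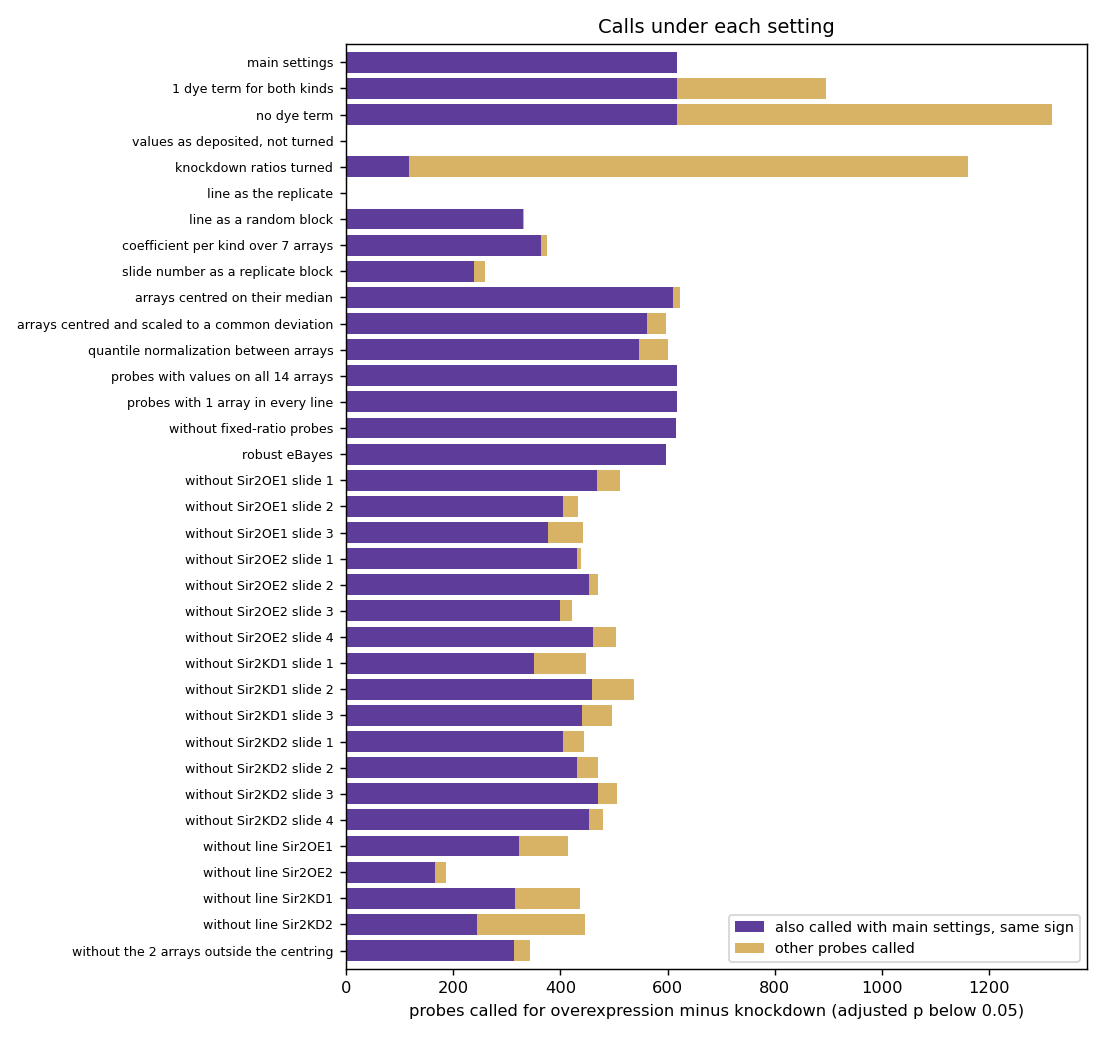
Number of probes called for overexpression minus knockdown (x axis) under the settings of the processing drawn (y axis; the one with the centring undone is not drawn); purple, probes also called on the same side with the main settings, and ochre, other probes. Leaving out any 1 array gave between 421 and 538 calls in place of 617, leaving out line Sir2OE2 gave 186, and 0 probes were called with the line as the replicate.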

How the data were processed

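RNA of MIN6 lines was measured on 14 2-colour arrays. The authors deposited a log2 ratio per probe and array, which the numbers show to be centred within a kind. The sources used here name no array software, background correction, normalization or ratio direction. The sign was turned where channel 1 held the line. Limma 3.58.1 in R 4.3.3 (lmFit, eBayes) took all 14 arrays in a fit with 4 line coefficients and a dye term per kind, for probes with at least 2 arrays in every line, and p-values were adjusted by the Benjamini-Hochberg method at 0.05. Mean overexpression minus mean knockdown was the contrast. The scripts were tested on simulated data.

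Of 23232 probes, 16885 had 1 gene symbol in the platform annotation, which is old; 143 had several and 6204 were not listed. Symbols were updated for 16205 through RefSeq's gene table, used for names only. Lists took the first singly named probe of a gene. Promoter windows were aligned with Biopython 1.88. Genes named were called, with the same sign in all 4 line differences and arrays not overlapping, ranked by the smallest line difference, 12 a side; further the leading 12 opposed genes, Sirt1 and called list members. Members and lists were chosen with earlier results of these data known. Alternatives covered the turn, dye term, replicate, scaling, filter and omissions.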

Additional observations from a re-analysis of the deposited data

Results flagged for a closer look

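Among 26 genes named by rule, 52 groups of 4 arrays were examined for an array far from the others, and chance would pick out about 1 in 20 groups. In 4 groups an array stood apart. Ighv6-6 was at -1.73 on Sir2OE2 slide 2, with the other 3 arrays between -2.32 and -2.23. Pdzk1ip1 was at 1.30 on Sir2KD2 slide 1, with the others between 1.92 and 2.04. Rassf6 was at -1.84 on Sir2OE2 slide 4, with the others between -0.94 and -0.89. Ucn3 was at 0.90 on the same array, with the others between 0.44 and 0.46.

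Lines of a kind differed by limma's test for 2 of these genes. Ucn3 differed by -1.27 between Sir2OE1 and Sir2OE2 (adjusted p = 0.0369), while every array of both lines stayed below every knockdown array. Cldn7 differed by -3.70 between Sir2KD1 and Sir2KD2 (adjusted p = 0.000896), more than the -2.92 between the kinds.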

How the results depend on the processing

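All results rest on the turn and on the assumption of the same channel on top, and each kind has a single control RNA. The number of arrays limits the precision; signal over background is unknown. The 617 calls became 1317 without a dye term, 332 with the line as a random block (within-line correlation 0.0194), 375 with a coefficient per kind, 343 without the arrays outside the centring, 186 without line Sir2OE2 and 0 with the line as the replicate. The 86 opposed probes became 160, 32, 40, 39, 11 and 0 in that order, and 51, 49 and 40 without the lines Sir2OE1, Sir2KD1 and Sir2KD2. Of 58 genes followed, 20 lost their call with the random block, 19 with the coefficient per kind and 20 without the arrays outside the centring. With the slide block below, 23 did. None of the 24 leading genes of the plus and minus sides was among them, which the rule for naming favoured. Pdx1, Rab3a and Elavl4 lost theirs without the arrays outside the centring, at 0.65, 0.66 and 0.60, and Nkx2-2 and Pax4 in all 4 of these settings. Any 1 array left out gave 421 to 538 calls and 51 to 67 opposed probes. The causes were not tested. A single dye term, median centring, scaling, quantile normalization, other probe filters and robust eBayes gave 597 to 895 calls, within 1.5 times of 617, and 71 to 120 opposed probes.

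With the slide number as a replicate block, 260 probes were called, 239 of them also called in the main setting, and 0 were opposed. Same-numbered slides of different lines had a mean residual correlation of -0.0659, and 1 of 19 pairs was above 0.1. Between kinds, same-numbered slides ran from -0.027 to 0.012. Within a kind, the dye term that the lines share itself ties their residuals together by channel. These correlations therefore cannot show whether the number pairs slides within a kind, which was not tested.

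With the values as deposited, 0 probes were called for the difference (10 at an unadjusted p under 0.05) and 0 were opposed, since the centring itself sets the mean of a kind near 0. Genes that changed side in that setting, all uncalled, were Serpina1e -0.60, Serpina1b -0.80, Serpina1c -0.61, Serpina1a -0.44, Serpina1d -0.43, Zkscan1 -0.25, Rbl2 -0.37, C2cd4b -0.061, Reg2 -0.32, 2210416O15Rik -0.27, Ighv6-6 0.0042, Abcc3 0.12, Ucn3 0.37, Ptgds 0.10, Rassf6 0.0032, Pdzk1ip1 0.016, Fnbp1l 0.70, Pdx1 -0.12, Nkx2-2 -0.051, Asns 0.12, Krt7 0.070, Car7 0.24, Capn1 0.055, Mapt -0.0035, Gap43 -0.15, Plagl1 -0.12, Dlk1 -0.96 and Cpb1 -0.16.

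With the knockdown ratios turned, that is, with the other channel on top in the knockdown arrays, 1160 probes were called and 165 were opposed. These 165 are by construction the probes called on the same side in both kinds with the main settings, and the 86 opposed there become same-side probes. In both settings 266 of the 617 were called, 118 of them on the same side, and 45.9% of calls were plus in place of 57.9%. Genes that changed side were Serpina1e -2.48, Serpina1b -2.70, Serpina1c -2.37, Serpina1a -2.24, Serpina1d -1.68, Zkscan1 -0.96, Ebf1 -0.078, Rbl2 -2.79, C2cd4b -1.01, Obox1 -2.88, Reg2 -1.15, Ucn3 2.67, Pdzk1ip1 0.24, Fnbp1l 4.35, Pdx1 -0.63, Nkx2-2 -0.38, Isl1 -0.47, Asns 0.68, Krt7 1.17, Car7 0.29, Mapt -0.12, Gap43 -0.82, Plagl1 -0.13, Dlk1 -2.59 and Cpb1 -0.33. Reading the values as line over control from the start, with the centring undone and no turn (chosen after seeing the data), gave 4140 calls and 161 opposed probes, with 74 of the 617 called again and 44 on the same side; 30 of 58 genes followed changed side. Of these calls 44.7% were plus, and the median of all probes moved from -0.01 to 0.11.

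Without line Sir2OE2, Sirt1 was at 0.084 and Sod3 at -0.061, and without line Sir2KD2 Epcam was at 0.34, each on the other side than with all lines and not called.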

Other observations

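The following genes were picked after their values were seen, so counts of their calls are a description. Among all probes tested, 1.12% were called minus and 1.54% plus. The interferon-induced membrane proteins, which block virus entry and most of which lie side by side in the genome, had 3 of 5 measured members called on the minus side, while limma called 0 of 21 genes on the interferon list (2 at an unadjusted p under 0.05). The called members were Ifitm1 (-1.07 ± 0.14, limma adjusted p = 0.00195), Ifitm2 (-1.58 ± 0.14, adjusted p = 0.000174) and Ifitm3 (-1.59 ± 0.17, adjusted p = 0.000483), each called in both kinds on opposite sides. In Ifitm3 the lines were at -1.29 and -0.71 in overexpression and 0.94 and 0.24 in knockdown. Ifitm5 was at -1.18 and Ifitm7 at -0.05, neither called. Probes of near-identical members may read each other's transcripts.

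Glutathione transferases, which conjugate electrophiles, had 4 of 24 genes called on the minus side and 0 on the plus side, with a median of -0.25. The shares over all probes were 1.12% minus and 1.54% plus. These were Gstm2 (-1.88 ± 0.11), Gstm3 (-1.43 ± 0.17), Gstt1 (-1.26 ± 0.14) and the microsomal Mgst3 (-1.06 ± 0.13). Gstm2 was at -1.61 and -1.40 in the overexpression lines and at 0.22 and 0.54 in the knockdown lines. Gstm1, Gstp1 and Gsto1 were at -0.22, -0.29 and -0.27 and were not called. The Gstp1 probe was among those with the shared set of ratios. Both probes of the X-linked elongation-factor-like gene Tceal6 were called plus in opposition (1.62 ± 0.15 and 1.79 ± 0.19), as was the related Bex1 in knockdown alone (1.04 ± 0.10). The other 7 probes of Tceal and Bex genes were not called. Among them, both Bex3 probes and that of Tceal9 read the shared set of ratios.

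Single genes with large differences included the tetraspanin Cd81 (2.22 ± 0.12), the retinol carrier Rbp4 (2.40 ± 0.29), the hepatic protein Fetub (2.56 ± 0.17) and angiotensinogen (Agt, -1.66 ± 0.15). Rbp4 was called in knockdown alone, with overexpression lines at -0.69 and 1.42. The knockdown lines differed by limma's test for Cd81, at -0.71 and -2.74 (adjusted p = 0.000606). They also differed for Fetub, at -2.70 and -1.43 (limma adjusted p = 0.044). Ovol2, a repressor of mesenchymal genes in epithelia, was at -1.49 ± 0.14 and was called in both kinds on opposite sides. Mest, far on the minus side of both kinds at -2.86 and -2.78, did not differ between them past the threshold, at -0.07 ± 0.34.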
